A study of Medicago sativa with 9 samples.

Results

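Inorganic phosphate transporters move phosphate across plant membranes, and selenite, the Se(IV) form of selenium, is known to enter rice roots through one of them. The PHT1 family sits in the plasma membrane and takes up phosphate together with protons, in roots and also in shoots, where it redistributes phosphate between tissues. PHT2-1 lies in the inner envelope of the chloroplast and carries phosphate into it. In Arabidopsis the transcription factor PHR1 raises PHT1 transcripts when phosphate is scarce, SPX proteins hold PHR1 back when it is plentiful, and PHO2 and NLA lead to the breakdown of PHT1 proteins.

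The members described here were taken by name from a table of poly(A) RNA sequencing of alfalfa (Medicago sativa) leaves, where 66 of 164632 listed genes carry a description of an inorganic phosphate transporter. Of these, 21 reached at least 1 FPKM (a read level scaled by gene length and library size) in at least 3 of the 9 libraries, against 50878 genes of the whole table. All leaves came from plants under selenite at 100 mg per kg, with 3 libraries at the start (0 h), 3 after 12 h and 3 after 48 h. The labels give no cultivar, plant age or time of day. They hold no untreated leaves at 12 or 48 h, so the effect of selenite and of the hour of sampling cannot be told apart, and they do not tell whether libraries of 1 time are separate plants, so the p-values hold for the spread of these libraries alone, and that spread could be technical.

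The 66 genes fall under 5 descriptions, written here as PT1-3, PT1-4, PT1-9, PT1-11 and PT2-1 after inorganic phosphate transporter 1-3 and so on, names that the table takes from Medicago truncatula. Alfalfa carries 4 copies of each of 8 chromosomes, which the table numbers 1.1 to 1.4 and likewise for the others. Near-identical copies can exchange reads, so copies of 1 description on 1 numbered chromosome were summed, and the summed group is the unit of the main test. The 21 expressed copies form 5 groups, and 18292 groups were tested in all. Levels are FPKM as deposited, summed over the copies of a group, and changes are log2 ratios of counts scaled by the trimmed mean of M values (TMM) with their standard error (SE). Coordinates are those of the table, whose genome build the sources used here do not name.

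Libraries held 39936347 to 56137145 counts. The TMM factors were 1.23 to 1.30 at 12 h, 0.848 to 0.976 at 0 h and 0.817 to 0.921 at 48 h. Scaled by library totals alone, the median log2 change of all groups would be 0.47 at 12 h against 0 h, -0.14 at 48 h against 0 h and -0.63 at 48 h against 12 h, and the changes below are relative to that median. Leaf mesophyll genes (the small subunit of Rubisco, chlorophyll a-b binding proteins, carbonic anhydrase) summed to between 111295 and 183358 FPKM in every library, and all 43 leghemoglobin genes, markers of root nodules, had no count. Of the whole root and nodule list of 219 genes 33 passed the filter, with sums of 1339 to 1707 FPKM at 0 h, 903 to 1561 at 12 h and 755 to 1674 at 48 h. Of 121 genes of the phloem list 35 passed the filter, with sums of 425 to 1406 FPKM at 0 h, 718 to 1422 at 12 h and 327 to 775 at 48 h. Of 39 genes of the xylem list 8 passed, with sums of 8.90 to 33.9 FPKM at 0 h, 4.80 to 7.46 at 12 h and 10.1 to 28.7 at 48 h. Of 8 guard cell genes 6 passed, with sums of 3.25 to 14.8, 7.55 to 13.7 and 4.23 to 9.84 FPKM. The part of these cell types in the values below was not tested.

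**Figure D1:**
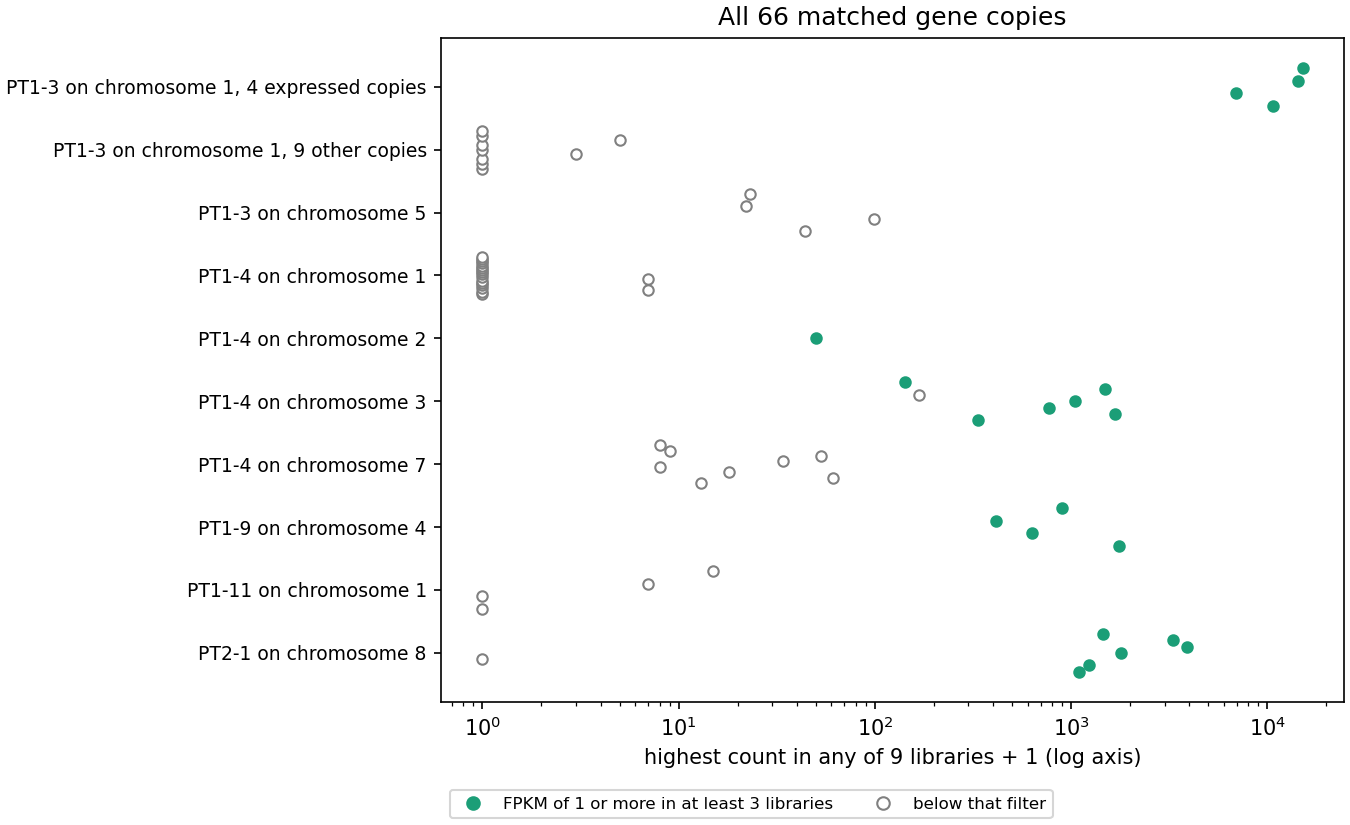
Highest count of each of the 66 matched gene copies in any of the 9 libraries, plus 1, on a log axis, by description and chromosome. Filled points passed the filter of 1 FPKM in at least 3 libraries. The 4 expressed copies of PT1-3 on chromosome 1 reach 6891 to 15141 counts, while 16 of 18 copies of PT1-4 on chromosome 1 have no count.

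Most matched genes were silent or nearly so in these leaves. PT1-4 had 18 copies on chromosome 1, of which 16 had no count and the others at most 6 in a library. All 8 copies of PT1-4 on chromosome 7 had some counts, at most 60 in a library, and none passed the filter. PT1-11 had 4 copies on chromosome 1, and the highest count was 14. PT1-3 had 9 further copies on chromosome 1, between 25855016 and 27607682, with at most 4 counts. A count of 0 allows up to 3 counts in a library, or 0.0534 to 0.0751 CPM (counts scaled to library size), a limit for counting error only.

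On chromosome 1, which held nearly all counts of PT1-3, its expression came from a single place on each chromosome copy. The 4 expressed genes are MS.gene53020 (chromosome 1.1, 56000387 to 56001993), MS.gene67188 (1.2, 57613482 to 57615098), MS.gene82323 (1.3, 53392999 to 53394615) and MS.gene004783 (1.4, 61207527 to 61209143), all on the plus strand. The next gene downstream on the same strand is a PT1-4 in each of the 4 cases, 1572, 2072, 1806 and 1799 bp away. Expressed PT1-3 copies had between 270 and 15141 counts in a library, and these PT1-4 neighbours had at most 6. No other listed gene overlaps any of the 21 expressed members.

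The filter let in copies that were detected mainly at 1 time. MS.gene002622 (PT1-4, chromosome 2.1) and MS.gene044338 (PT1-4, chromosome 3.4) reached 1 FPKM in the 3 libraries of 12 h and in no other. MS.gene71303 (PT1-4, chromosome 3.2) reached it in 3 libraries too, with 2.19 and 2.76 FPKM at 0 h and 9.59 in 48 h replicate 3. Just outside, MS.gene25690 (PT1-4, chromosome 3.3) reached 2.14 FPKM in 12 h replicate 3 and stayed below 1 elsewhere, and MS.gene90675 (PT1-3, chromosome 5.2) reached 1.22 FPKM in 48 h replicate 2 alone. A copy that passes through the time where it is high has to differ between times, so the counts of called members below describe these genes and support no statement about the family.

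**Figure D2:**
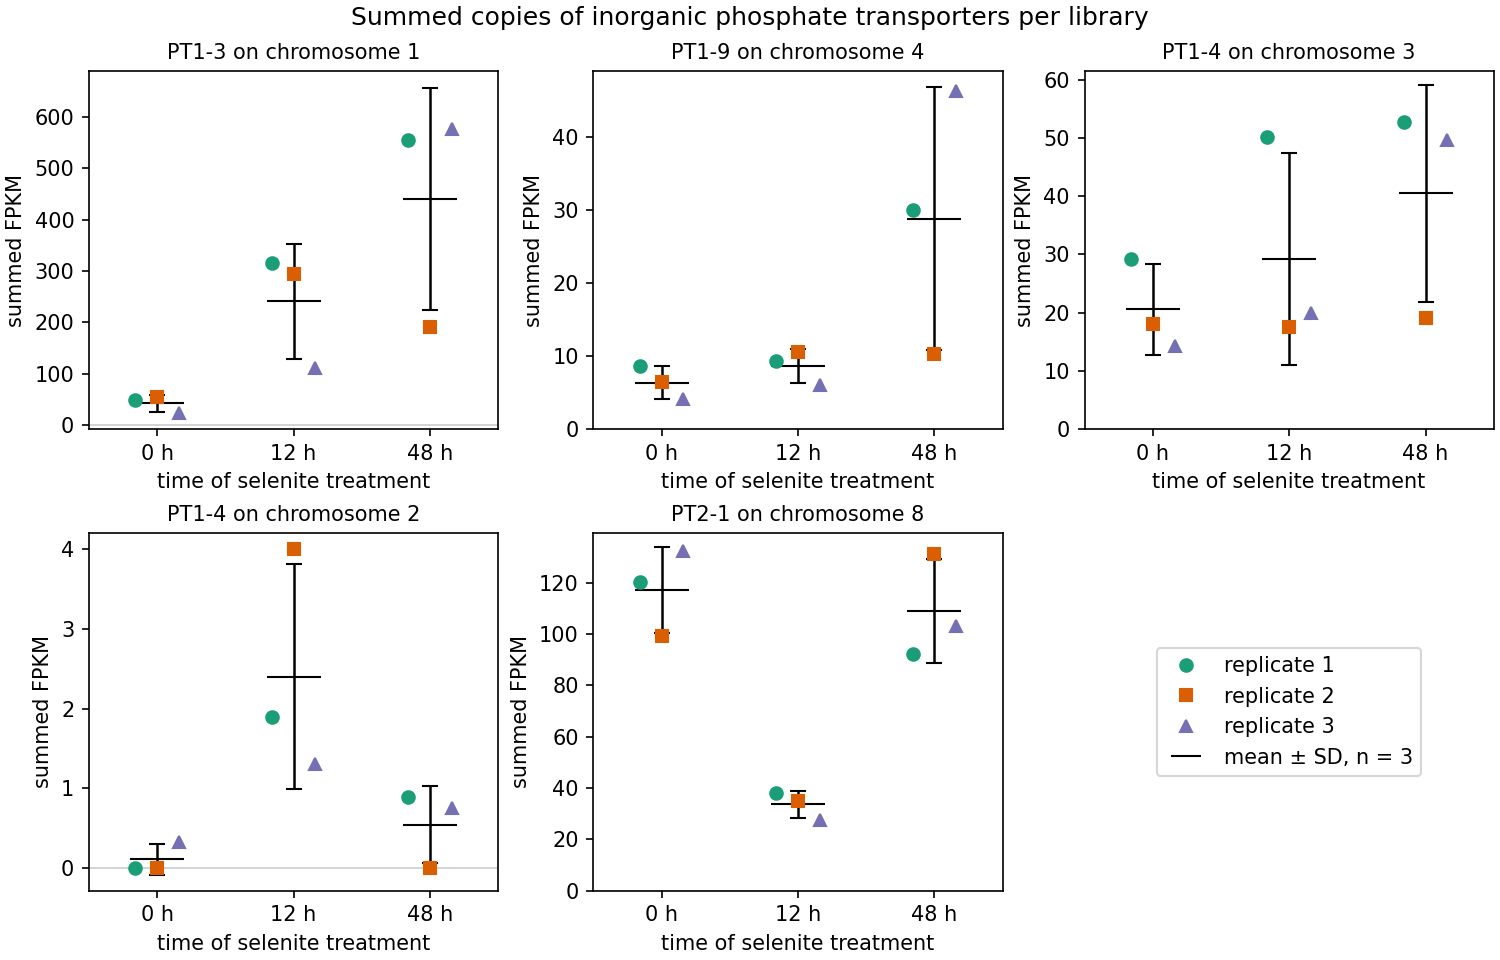
Summed FPKM of the 5 groups in each library at 0, 12 and 48 h, with the mean ± SD of 3 libraries as a black bar. PT1-3 lies at 24.2 to 55.6 FPKM at 0 h and at 191 to 575 at 48 h, and PT2-1 dips to 27.7 to 38.1 FPKM at 12 h.

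Among the plasma membrane transporters PT1-3 was the most abundant and rose at both later times. Its 4 copies summed to 49.1, 55.6 and 24.2 FPKM in replicates 1, 2 and 3 of 0 h. At 12 h they summed to 316, 294 and 112 FPKM, and at 48 h to 556, 191 and 575. Every library of 12 and 48 h lay above every library of 0 h, while 12 h replicate 3 and 48 h replicate 2 were the low ones of their times. The means were 43.0 ± 16.5 FPKM at 0 h, 241 ± 112 at 12 h and 441 ± 216 at 48 h (SD, n = 3 each).

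The log2 change of PT1-3 was 2.07 ± 0.52 (SE) at 12 h against 0 h, with an edgeR adjusted p of 0.0325. At 48 h against 0 h it was 3.44 ± 0.55 with an adjusted p of 0.0124, a 10.8-fold rise. The step from 12 to 48 h was 1.37 ± 0.51 and missed the threshold (adjusted p = 0.089), but passed it without 48 h replicate 2 (1.71, adjusted p = 0.0305). The 12 h call was lost when 0 h replicate 1, 2 or 3 was left out (2.14, 2.30 and 1.83, adjusted p = 0.0825, 0.0549 and 0.092). It was also lost without 12 h replicate 1 or 2 (1.85 and 1.88, adjusted p = 0.11 and 0.106). The 48 h call held without any single library.

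The 4 copies of PT1-3 had like log2 changes, of which 3 were called at 48 h. The copy with the highest mean level, MS.gene004783, had 13.1 ± 6.22 FPKM at 0 h, 84.5 ± 40.5 at 12 h and 139.7 ± 67.6 at 48 h. Called higher at 48 h against 0 h were MS.gene53020 (3.56 ± 0.54, adjusted p = 0.0321), MS.gene82323 (3.42 ± 0.59, 0.0426) and MS.gene004783 (3.50 ± 0.62, 0.0454). MS.gene67188 had 3.10 ± 0.69 and missed the threshold in edgeR (0.0825) but not in DESeq2 (adjusted p = 0.000259). At 12 h against 0 h the log2 changes of the 4 copies ran from 1.65 to 2.34, with edgeR adjusted p from 0.0595 to 0.119, while DESeq2 called all 4 higher (adjusted p from 0.00164 to 0.0206). MS.gene53020 was also called higher at 48 h against 12 h (1.91 ± 0.50, adjusted p = 0.0495).

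PT1-9, a second plasma membrane transporter, rose between 12 and 48 h. Its 4 copies on chromosome 4 summed to 8.58, 6.47 and 4.11 FPKM at 0 h, to 9.37, 10.5 and 6.08 at 12 h and to 30.0, 10.3 and 46.3 at 48 h. In FPKM, which do not carry the TMM factors, the ranges of 0 and 12 h overlap. On that scale 48 h replicate 2 lies within the range of 12 h. The log2 change was 0.02 ± 0.47 at 12 h against 0 h (adjusted p = 0.985), 2.24 ± 0.49 at 48 h against 0 h (0.0333) and 2.22 ± 0.49 at 48 h against 12 h (0.0142). The rise over 0 h was called in 8 of 20 alternative settings, with log2 changes from 1.79 to 2.63. Without 48 h replicate 2 it was 2.63 with an adjusted p of 0.00411. It missed the threshold without 0 h replicates 1, 2 or 3 (adjusted p = 0.061, 0.0806 and 0.0941), 12 h replicates 1 or 2 (0.062 and 0.0572) and 48 h replicates 1 or 3 (0.106 and 0.103). The step from 12 to 48 h was lost without 12 h replicate 1 or 3 (2.26 and 2.02, adjusted p = 0.0521 and 0.0501).

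MS.gene067567 on chromosome 4.1 (24118311 to 24121665) was the most abundant copy of PT1-9, with 5.35, 3.52 and 2.63 FPKM at 0 h, 4.98, 5.94 and 4.07 at 12 h and 13.1, 4.60 and 22.0 at 48 h. It was not called by edgeR in any comparison, and DESeq2 called it higher at 48 h against 0 h and against 12 h (1.86 and 1.81, adjusted p = 0.0124 and 0.00739). MS.gene059428 on chromosome 4.4 (29058821 to 29062282) was called at 48 h against 12 h, with a log2 change of 3.05 ± 0.63 (adjusted p = 0.0223). The share of PT1-9 counts on MS.gene059428 was 11.3% to 21.5% in the libraries of 0 and 12 h and 24.3% to 37.1% in those of 48 h.

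PT1-4 on chromosome 3 had no called change. Its 6 expressed copies summed to 29.3, 18.1 and 14.3 FPKM at 0 h, 50.2, 17.5 and 20.0 at 12 h and 52.8, 19.1 and 49.6 at 48 h, and the 3 ranges overlap. The log2 changes were 0.06 ± 0.48 at 12 h against 0 h, 1.06 ± 0.49 at 48 h against 0 h (adjusted p = 0.235) and 0.997 ± 0.49 at 48 h against 12 h (0.178). Its most abundant copy, MS.gene70465 on chromosome 3.1 (66591735 to 66593492), had 8.49, 5.23 and 4.47 FPKM at 0 h, 18.3, 11.8 and 9.38 at 12 h and 25.4, 18.2 and 20.7 at 48 h. In FPKM, which do not carry the TMM factors, every library of 12 h lay above those of 0 h for that copy. On TMM-scaled counts its log2 change at 12 h against 0 h was 0.75 ± 0.34 (edgeR adjusted p = 0.251). All its changes missed the threshold in edgeR, with 1.91 ± 0.35 and an adjusted p of 0.0502 at 48 h against 0 h. DESeq2 called that change (1.93, adjusted p = 9.37e-06) and the rise of that copy from 12 to 48 h (1.15, adjusted p = 0.00942). Other copies of the group went both ways. DESeq2 called MS.gene71303 higher at 48 h against 12 h (3.68, adjusted p = 0.012). DESeq2 called MS.gene25691 lower at 48 h against 0 h and against 12 h (-10.7 and -10.3, adjusted p = 0.000283 and 0.000206). MS.gene044338, lower at 48 h against 12 h by DESeq2, entered through its 12 h libraries alone, so that call is not read. The lone PT1-4 copy on chromosome 2, MS.gene002622, had 0, 0 and 4 counts at 0 h, 22, 49 and 18 at 12 h and 9, 0 and 8 at 48 h. It entered through its 12 h libraries alone, so these counts are a description and no test of them is read.

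The chloroplast transporter PT2-1 fell at 12 h and was back at 48 h. Its 6 expressed copies on chromosome 8 summed to 120.2, 99.3 and 132 FPKM at 0 h, to 38.1, 35.1 and 27.7 at 12 h and to 92.1, 131 and 103 at 48 h. The libraries of 12 h lay below all others, and those of 0 and 48 h overlap. The means were 117 ± 16.7, 33.6 ± 5.38 and 109 ± 20.2 FPKM (SD, n = 3 each). In leaves taken whole, fewer cells of a type and less RNA per cell cannot be told apart.

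The log2 change of PT2-1 was -2.48 ± 0.27 at 12 h against 0 h (adjusted p = 0.00106) and 2.71 ± 0.27 at 48 h against 12 h (adjusted p = 0.000567). At 48 h against 0 h it was 0.23 ± 0.25 (adjusted p = 0.652). Both called changes held in 19 of 20 alternative settings, the exception being the summing of libraries within 12 h and 48 h. MS.gene067922 on chromosome 8.3 (33683294 to 33686343), the most abundant copy, had 43.4, 29.8 and 42.8 FPKM at 0 h, 11.3, 10.0 and 6.09 at 12 h and 30.0, 47.6 and 36.6 at 48 h. EdgeR called it lower at 12 h against 0 h (-2.47 ± 0.35, adjusted p = 0.00891) and higher at 48 h against 12 h (2.51 ± 0.35, 0.00639). MS.gene056422 on chromosome 8.2 (33666333 to 33674592) fell by 3.41 ± 0.54 at 12 h (adjusted p = 0.0128) and was 4.22 ± 0.56 higher at 48 h than at 12 h (0.00558). MS.gene048324 on chromosome 8.4 (34676439 to 34683718) was called by edgeR at 48 h against 12 h, at 2.44 ± 0.59 (0.0377), and by DESeq2 also lower at 12 h against 0 h (-1.89, adjusted p = 0.0151). On chromosome 8.1 the table lists 4 gene models of PT2-1 between 35835372 and 35886031. Of these 1 had no count and none of the others was called by edgeR. DESeq2 called MS.gene048322 lower at 12 h against 0 h (-1.35, adjusted p = 0.0052).

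**Figure D3:**
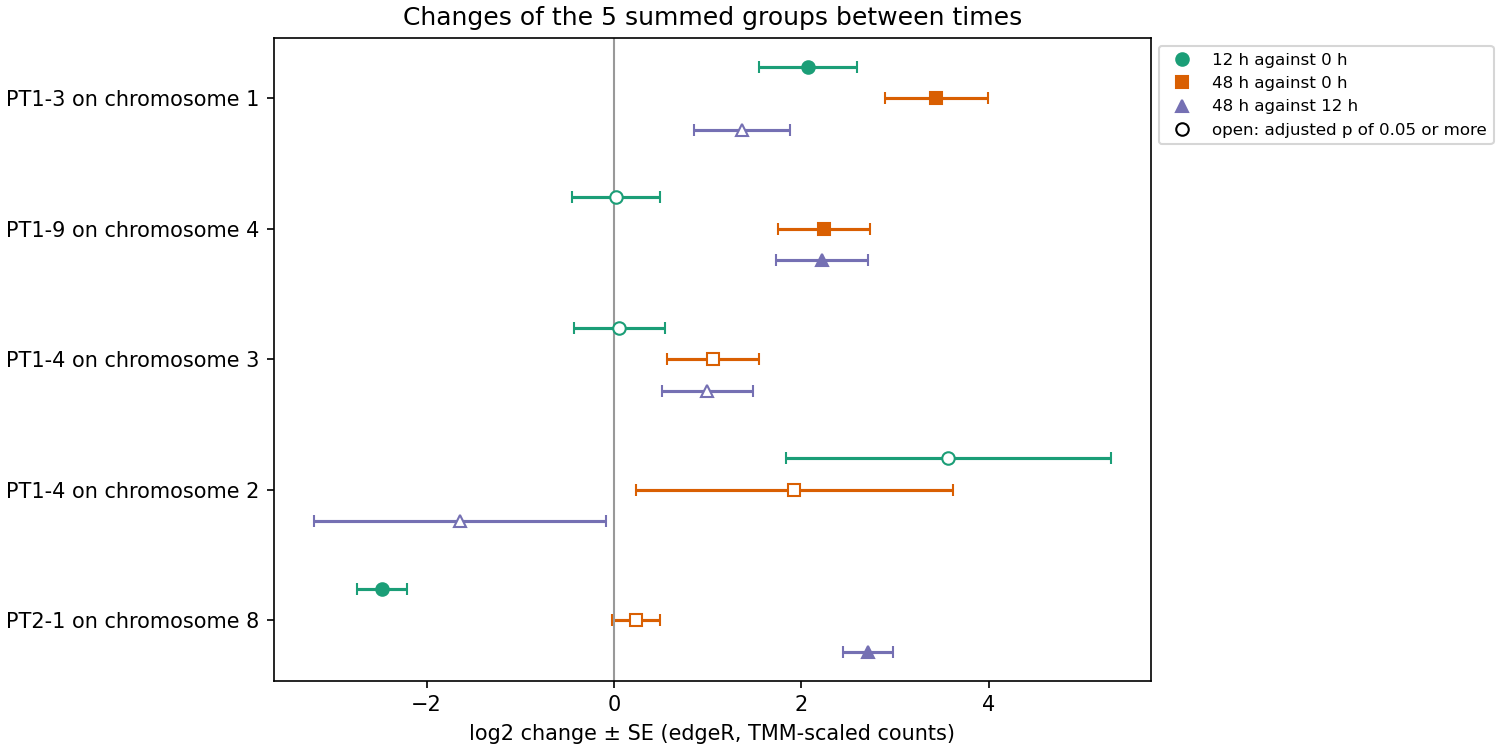
Log2 change of each summed group with its SE in the 3 comparisons, from the edgeR fit with all 9 libraries. Filled symbols have an adjusted p under 0.05: PT1-3 at 12 and 48 h, PT1-9 at 48 h and PT2-1 in both comparisons with 12 h.

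Of the 5 groups 1 rose and 1 fell at 12 h against 0 h, where 5.25% of all groups were called higher and 8.76% lower. From 0 to 48 h 2 groups rose and none fell, with 3.57% higher and 3.36% lower among all groups, 2 groups at an unadjusted p under 0.05 and 2 higher and 0 lower by DESeq2. From 12 to 48 h 2 groups rose and none fell, with 12.7% higher and 9.63% lower among all groups, 3 groups at an unadjusted p under 0.05 and 3 higher and 0 lower by DESeq2. The 3 comparisons share libraries and are not independent of each other.

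Of the 21 single copies 2 fell and none rose at 12 h against 0 h, where 4.29% of all copies were called lower and 1.58% higher. By DESeq2 4 rose and 4 fell, and 9 had an unadjusted edgeR p under 0.05. The 2 calls became 1 without 12 h replicate 2, 4 without 12 h replicate 3 and 5 without 48 h replicate 2. From 0 to 48 h 3 copies rose and none fell, beside 0.647% higher and 0.497% lower among all copies, with 8 higher and 1 lower by DESeq2 and 9 at an unadjusted p under 0.05. Without 48 h replicate 2 the 3 became 7, without 12 h replicate 3 they became 1, and without any other library 0. From 12 to 48 h 5 copies rose and none fell, beside 6.96% higher and 3.61% lower, with 8 higher and 2 lower by DESeq2 and 10 at an unadjusted p under 0.05. The 5 became 2 without 12 h replicate 1 or 2 or 48 h replicate 1 or 3, and 3 without 12 h replicate 3.

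The order of the 5 groups by level changed with time. At 0 h PT2-1 stood first and PT1-3 second, with separate ranges. PT1-3 and PT1-4 on chromosome 3 overlapped in range there, PT1-9 came next and PT1-4 on chromosome 2 last. At 12 h PT1-3 stood first with a separate range, and PT2-1 overlapped PT1-4 on chromosome 3. At 48 h PT1-3 was again first and PT2-1 second with separate ranges, while PT1-4 on chromosome 3 and PT1-9 overlapped.

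The ratio of PT1-3 to PT2-1 within a library, which no scaling of libraries can change, was 0.408, 0.56 and 0.183 at 0 h. It was 8.30, 8.38 and 4.06 at 12 h and 6.03, 1.46 and 5.58 at 48 h, so that PT2-1 was above PT1-3 in the 3 libraries of 0 h and below it in the other 6. PT1-3 made up 13.8% to 31.0% of the summed FPKM of the 5 groups at 0 h, 67.1% to 81.4% at 12 h and 54.4% to 76.0% at 48 h. The sum of the 5 groups was 175 to 207 FPKM at 0 h, 167 to 416 at 12 h and 352 to 775 at 48 h, so that 12 h replicate 3 (167) lay below 0 h.

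**Figure D4:**
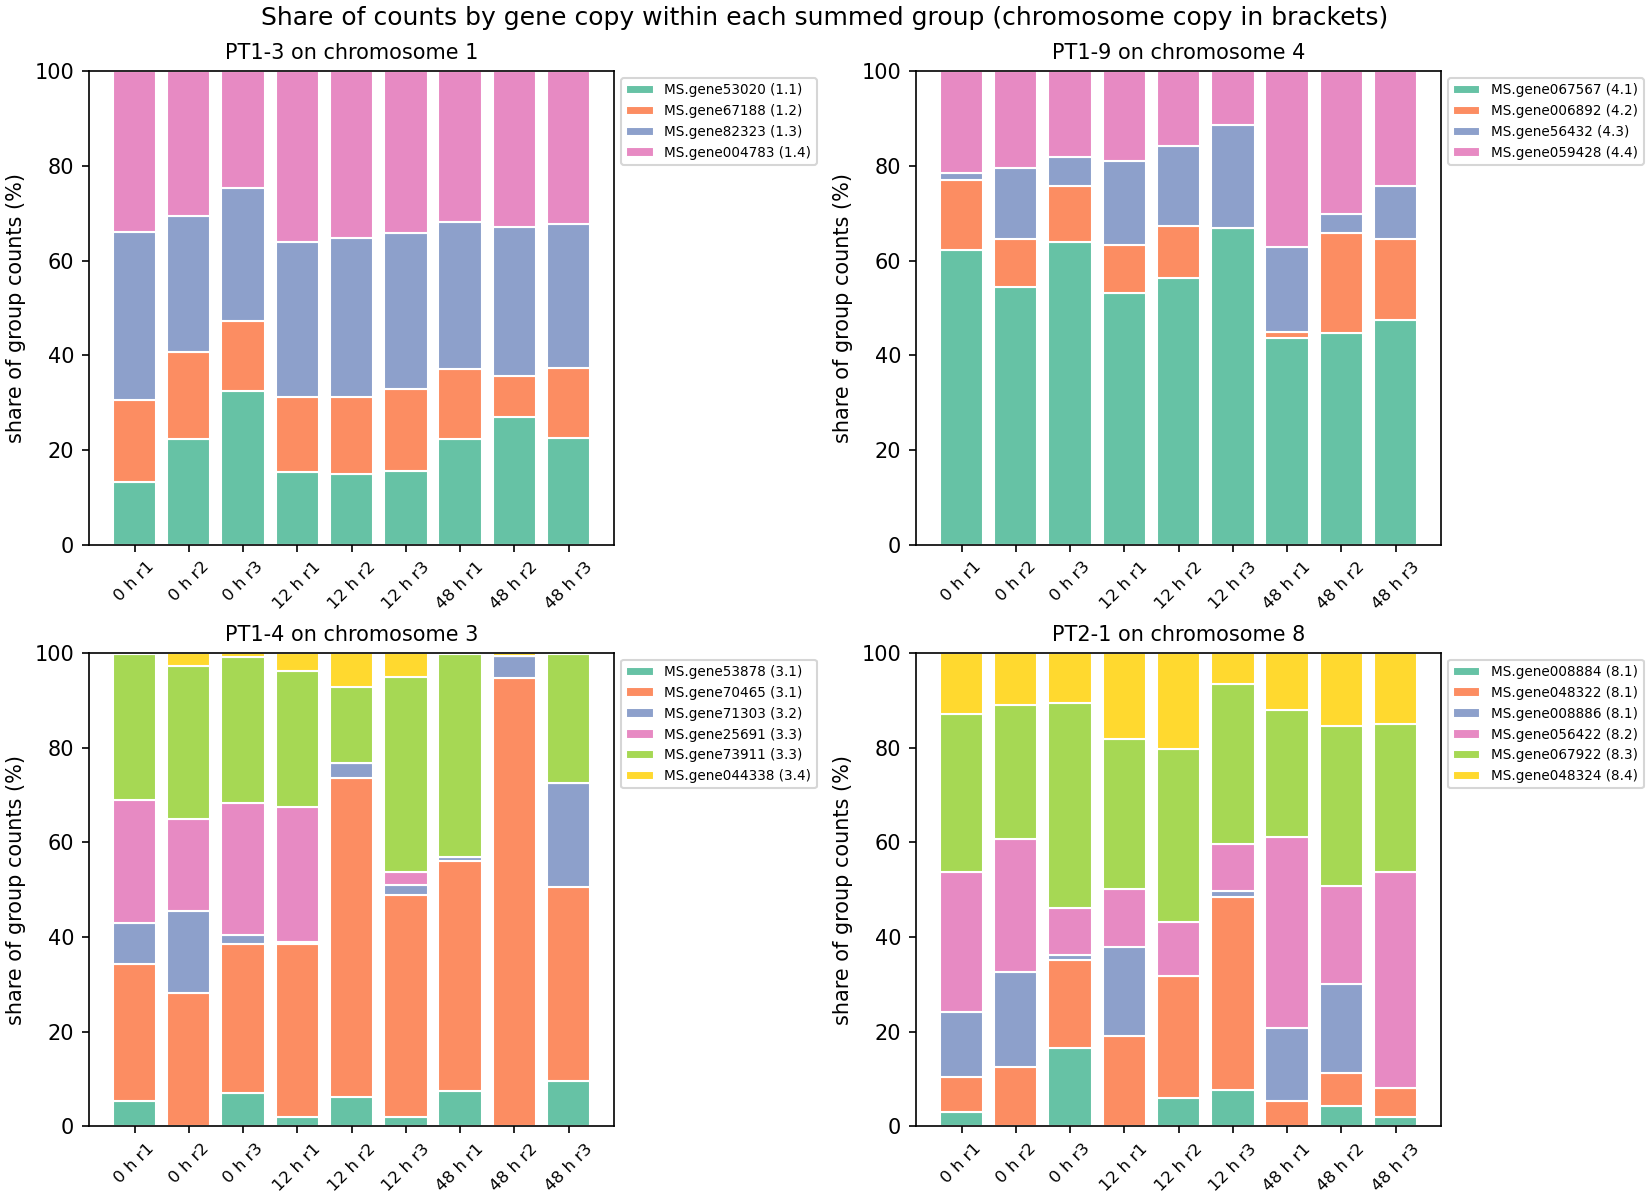
Share of the counts of a summed group on each gene copy, in percent, for the 4 groups of several copies in the 9 libraries. In PT1-3 MS.gene53020 takes from 13.3% to 32.5%, and in PT1-4 on chromosome 3 MS.gene70465 from 28.2% to 94.7% of the counts.

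The shares of the copies varied between libraries in each group. For PT1-3 the share of MS.gene82323 stayed between 28.0% and 35.5% and that of MS.gene004783 between 24.7% and 36.0% over the 9 libraries, while MS.gene53020 ran from 13.3% to 32.5% and MS.gene67188 from 8.57% to 18.3%. Measured as the share of counts by which 2 libraries differ in their use of copies, the distance was 1.25% to 1.78% among the 12 h libraries of PT1-3, 10.1% to 19.2% among those of 0 h and 0.634% to 6.13% among those of 48 h. For PT1-4 on chromosome 3 it was 25.7% to 41.1% at 12 h, 6.69% to 18.6% at 0 h and 23.3% to 54.2% at 48 h. A pair of its copies is named after their values had been seen. MS.gene25691 had 555, 230 and 254 counts at 0 h, 1043, 0 and 48 at 12 h and none at 48 h. MS.gene73911 had 661, 380 and 282 counts at 0 h, 1057, 222 and 735 at 12 h and 1487, 0 and 948 at 48 h. Its change was not called in any comparison. The 0 of MS.gene73911 in 48 h replicate 2 came with a share of 94.7% on MS.gene70465.

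Every call above rests on treating the 9 libraries as separate samples. An alternative taken over from earlier results of these data adds up the 3 libraries of 12 h to a single column, and likewise 48 h replicates 1 and 3. These sets had like copy shares in PT1-3, but not in PT1-4 on chromosome 3 or in PT2-1, where the 12 h libraries differed by 17.9% to 31.4%. With the sets added up, edgeR called none of the 5 groups and none of all 18292, with 2165, 2319 and 2587 groups at an unadjusted p under 0.05. The log2 changes hardly moved. PT2-1 at 12 h against 0 h had -2.49 ± 0.39 (adjusted p = 0.104), PT1-3 at 48 h against 0 h 3.26 ± 0.55 (0.128) and PT1-9 at 48 h against 0 h 2.05 ± 0.57 (0.244). The lone 12 h column is then assumed to vary like the other times, and only edgeR was run in this way.

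**Figure D5:**
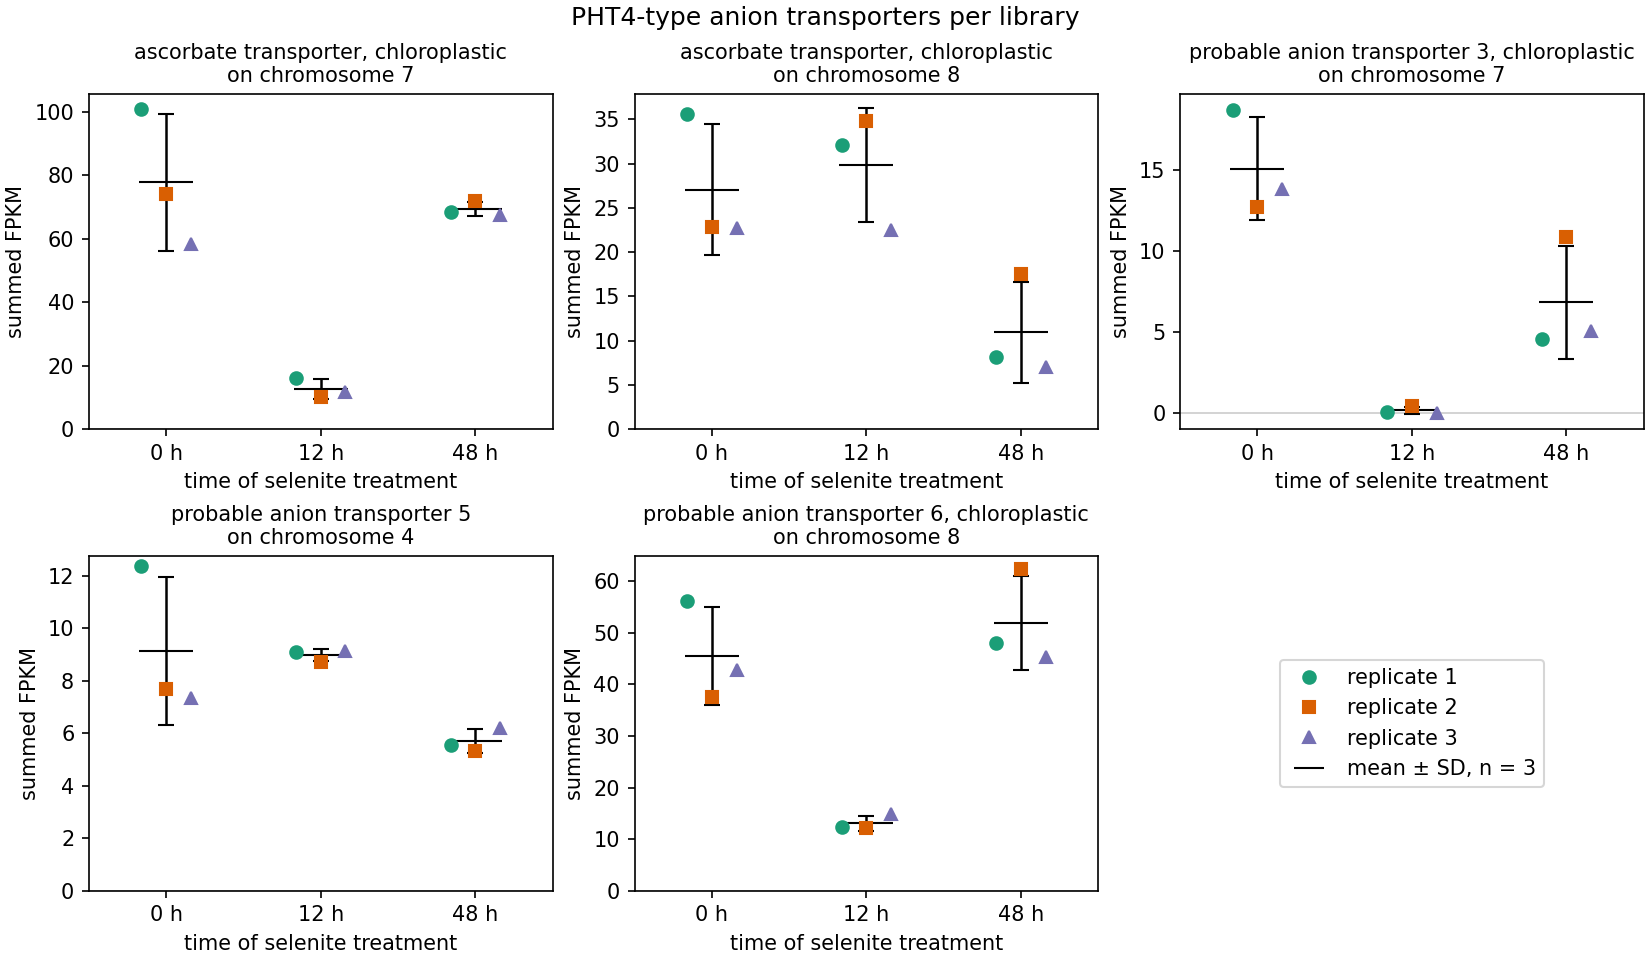
Summed FPKM of the 5 groups of PHT4-type anion transporters in each library, with the mean ± SD of 3 libraries. The groups of the ascorbate transporter on chromosome 7 and of anion transporters 3 and 6 are lowest in the 3 libraries of 12 h.

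Among 8 lists of other phosphate genes the PHT4 list of intracellular anion transporters had members that fell and came back as PT2-1 did. Of its 5 groups 3 fell at 12 h against 0 h, where 8.76% of all groups were lower, and 3 rose at 48 h against 12 h, where 12.7% were higher. The list was singled out after its values had been seen, from 8 such lists. The ascorbate transporter of the chloroplast on chromosome 7, whose Arabidopsis counterpart PHT4-4 carries ascorbate into the chloroplast, went from 101, 74.1 and 58.3 FPKM at 0 h to 16.2, 10.0 and 11.8 at 12 h and 68.5, 71.7 and 67.6 at 48 h. Its log2 change was -3.03 ± 0.24 at 12 h against 0 h (adjusted p = 0.000313) and 2.96 ± 0.24 at 48 h against 12 h (0.000263). The other two, anion transporters 3 and 6, are described as chloroplastic too, and were named after their values had been seen. Anion transporter 6 changed by -2.20 ± 0.22 and 2.58 ± 0.23, and anion transporter 3, with 0.079, 0.412 and 0 FPKM at 12 h, by -6.89 ± 1.19 and 5.85 ± 1.14 (adjusted p = 0.00748 and 0.00878). A further ascorbate transporter on chromosome 8 and anion transporter 5 were not called by edgeR in any comparison. At 48 h against 0 h they had log2 changes of -1.19 ± 0.39 and -0.59 ± 0.23, and DESeq2 called the first lower (adjusted p = 0.0307).

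Vacuolar transporters had calls in the same comparisons. In the list of SPX domain proteins 2 of 7 groups fell at 12 h against 0 h (28.6%, beside 8.76% of all groups). At 48 h against 12 h 3 of the 7 rose (42.9%, beside 12.7% of all groups). All of these are SPX membrane proteins named after At4g22990, a family that carries phosphate into the vacuole in Arabidopsis. The group with the smallest p, isoform X2 on chromosome 6, had 18.6, 14.05 and 11.2 FPKM at 0 h, 6.65, 5.15 and 5.78 at 12 h and 15.4, 13.0 and 19.4 at 48 h. It changed by -1.75 ± 0.21 (adjusted p = 0.00149) and 1.96 ± 0.21 (0.000715). The small SPX proteins 1, 2, 3 and 4-like, which sense phosphate status, had log2 changes of 0.82, -0.04, 1.94 and -0.88 at 12 h against 0 h and none was called.

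PHOSPHATE STARVATION RESPONSE 1 changed by 0.14 ± 0.26 at 12 h and -0.21 ± 0.26 at 48 h against 0 h (adjusted p = 0.772 and 0.702). In the list of PHR and PHL regulators 2 of 14 groups rose at 12 h against 0 h (14.3%, beside 5.25% of all groups), 1 fell at 48 h against 0 h (7.14%, beside 3.36%) and 2 fell at 48 h against 12 h (14.3%, beside 9.63%). PHR1-LIKE 3 on chromosome 1 went from 4.18 ± 3.34 FPKM to 40.5 ± 4.19 at 12 h and 3.44 ± 2.77 at 48 h, a log2 change of 2.96 ± 0.70 at 12 h against 0 h (adjusted p = 0.0266). PHL8 on chromosome 4 had 23.0 ± 4.10 FPKM at 0 h, 63.4 ± 18.1 at 12 h and 6.07 ± 1.93 at 48 h. Its log2 change at 12 h against 0 h was 0.99 ± 0.29 and missed the threshold in edgeR (adjusted p = 0.0563) but not in DESeq2 (0.0116). PHL8 fell by 1.88 ± 0.30 at 48 h against 0 h (edgeR adjusted p = 0.0124) and its log2 change at 48 h against 12 h was -2.87 ± 0.31 (0.00076). In the list of PHO2, NLA and PHF1 edgeR called none of 8 groups in any comparison, with 3, 0 and 2 at an unadjusted p under 0.05, and DESeq2 called 3, 0 and 1. The PHO2-type enzyme E2 24 changed by -0.32 ± 0.52 and -0.49 ± 0.52 at 12 and 48 h against 0 h.

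The remaining lists had single calls. In the list of PHO1 exporters, which load phosphate into the xylem, edgeR called none of 3 groups, with 2, 1 and 1 at an unadjusted p under 0.05, the same counts as called by DESeq2. Of 4 groups of mitochondrial phosphate carriers 1 fell at 12 h against 0 h, a low-level carrier 1 on chromosome 5 that went from 2.74 ± 0.97 to 0.72 ± 0.16 FPKM (-2.39 ± 0.61, adjusted p = 0.0352). Of 16 groups of purple acid phosphatases, which release phosphate from organic compounds, inactive purple acid phosphatase 29 on chromosome 8 rose at 48 h against 0 h. It had 9.49, 8.59 and 12.0 FPKM at 0 h and 75.3, 19.1 and 90.2 at 48 h (2.63 ± 0.50, adjusted p = 0.0217), with 48 h replicate 2 lowest of its time as in PT1-3 and PT1-9. From 12 to 48 h 1 purple acid phosphatase group rose and 2 fell, the one of smallest p being inactive purple acid phosphatase 1 on chromosome 8 (-1.25 ± 0.26, adjusted p = 0.0123). The glycerol-3-phosphate transporter 1 on chromosome 4 rose at 48 h against 0 h by 2.29 ± 0.27 (adjusted p = 0.00576) and at 48 h against 12 h by 2.59 ± 0.27 (0.000706). Over the 59 groups of the 8 lists 2 rose and 6 fell at 12 h against 0 h, 2 rose and 1 fell at 48 h against 0 h, and 8 rose and 4 fell at 48 h against 12 h, with median log2 changes of 0.14, 0.09 and 0.12. These are 3.39% higher and 10.2% lower at 12 h against 0 h, 3.39% and 1.69% at 48 h against 0 h and 13.6% and 6.78% at 48 h against 12 h. Over all groups the shares were 5.25% and 8.76%, 3.57% and 3.36%, and 12.7% and 9.63%.

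The groups most like PT1-3 over the 9 libraries were found by Pearson's r of log2 CPM among 8304 groups with a mean of at least 10 FPKM, as a description. PLANT CADMIUM RESISTANCE 2 on chromosome 4 had an r of 0.982, with 127 ± 18.7 FPKM at 0 h, 524 ± 240 at 12 h and 621 ± 259 at 48 h. Its low libraries were also 12 h replicate 3 (250 FPKM) and 48 h replicate 2 (323), a likeness that comes with the choice by r. Kinase 1B on chromosome 4 (0.98), the receptor-like kinase At5g24010 on chromosome 7 (0.979), the ubiquitin-conjugating enzyme E2 C on chromosome 1 (0.979) and a bet1-like protein on chromosome 5 (0.979) followed. The 9 points share 3 times and their libraries.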

How the data were processed

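The authors deposited 1 table with a read count and an FPKM value per gene and library. Counts are whole numbers per gene, not normalized, per the file headers. FPKM values were computed by the authors and are listed as 0.0001 where the count is 0, read here as 0. HISAT and StringTie were used, per the submitters' processing notes; no source used here names settings, build or annotation. Libraries were paired-end with 300 ± 50 bp inserts, per the labels' protocols.

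Genes with 1 FPKM or more in at least 3 libraries were kept and counts summed by description and numbered chromosome. Genes elsewhere were kept alone. The quasi-likelihood test of edgeR 4.0.16 (R 4.3.3) with TMM scaling, 1 mean per time and all 9 libraries was used, with Benjamini-Hochberg adjustment over all features at 0.05. The common coefficient of variation was 0.575 for summed groups and 0.843 for copies. SE was taken as the absolute change over the root of the F value. The test was checked on simulated counts of 18292 groups. At 12 h against 0 h it recovered 34.3% of 4-fold and 83.6% of 16-fold changes. At 48 h against 0 h it recovered 35.8% and 76.1%. A missing call alone therefore does not show that a group was unchanged. These shares hold over many groups and set no limit for a single one, for which its own log2 change and SE are to be read. Alternatives used DESeq2 1.42.0, limma 3.58.1 on log2(FPKM + 1) and log2(FPKM + 0.1), other scalings, filters and libraries.

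The members, lists and markers were chosen with earlier results of these data known. Every summed group is described. Copies named by rule are the most abundant of each group and each called copy, and of other lists the called group of smallest adjusted p per comparison. Further copies and groups are named outside this rule, among them copies called by DESeq2 alone and groups not called. Nucleobase-ascorbate transporters, which the PHT4 pattern had matched, were removed by name after the table was seen. No sequences of these genes were used here.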

Additional observations from a re-analysis of the deposited data

Results flagged for a closer look

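A signal outside the tested genes appeared in 1 library. The 4 copies of PT1-3 on chromosome 5, none of which passed the filter on low values, summed to 184 counts in 48 h replicate 2. They had no count in the 6 libraries of 0 and 12 h or in 48 h replicate 3, and 4 counts in 48 h replicate 1. In 48 h replicate 2 the copies MS.gene43671, MS.gene90675, MS.gene009996 and MS.gene023773 held 43, 98, 21 and 22 counts. The same library had 12 counts over the PT1-4 copies on chromosome 1, where all others had 0. Beside these, its PT1-3 copies on chromosome 1 held 14480 counts, against 43638 and 47025 in 48 h replicates 1 and 3. The cause was not tested.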

How the results depend on the processing

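The calls of PT1-3 at 48 h and of PT2-1 at 12 h held under all but 1 of 20 alternative settings each, the exception being the summing of the 12 h libraries and of 48 h replicates 1 and 3. That summing left 0 called groups and 0 called copies in each comparison. At 12 h against 0 h the 2 called groups became 1 with the replicate block and 1 to 2 with a library left out. The 2 called copies became 4 by library totals, 8 by DESeq2, 7 and 5 by limma with pseudocounts of 1 and 0.1, 5 with a filter of 5 FPKM, 1 with the block and 1 to 5 with a library left out. At 48 h against 0 h the 2 groups became 1 by limma with a pseudocount of 0.1, 1 with a filter of 5 FPKM, 1 with only the 2 times in the fit, 1 with the block and 1 to 2 with a library left out. The 3 copies became 1 by library totals, 9 by DESeq2, 0 without a filter, 0 with only the 2 times, 0 with the block and 0 to 7 with a library left out. At 48 h against 12 h the 2 groups became 1 by limma with a pseudocount of 0.1 and 1 to 3 with a library left out. The 5 copies became 10 by DESeq2, 3 without a filter, 2 with the block and 2 to 5 with a library left out. The cause of these shifts was not tested. Values near 0 changed sign: PT1-4 on chromosome 3 at 12 h to -0.065 with the replicate block and -0.551 to 0.339 with a library left out, PT1-9 at 12 h to -0.035 with a filter of 5 FPKM and -0.168 to 0.24 with a library left out, PT2-1 at 48 h against 0 h to -0.11 by limma with either pseudocount. Replicate numbers share no source in the labels, and same-numbered libraries of different times had correlations of deviations from -0.0764 to 0.0693, and not every library correlated best with its own number, so the block is no paired analysis. PT1-4 on chromosome 2 gave no value with a filter of 5 FPKM. Keeping uninformative descriptions apart, chosen after seeing the data, changed no group's call.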
